A study of Homo sapiens with 3 samples.

Results

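The 10 genes described here encode the 5 subunits of NF-kB and 5 proteins that restrain its signalling or are made in response to it. The subunit genes are NFKB1, NFKB2, REL, RELA and RELB, and the others are NFKBIA, NFKBIE, TNFAIP2, TNFAIP3 and TRAF1. They were chosen by name, with earlier results of these data known, as all array probes annotated to these symbols. Each gene had 1 probe. They are 10 of 19367 genes with a named probe. Expression was measured on 3 Illumina bead arrays in L428tetPU.1 cells, a derivative of the classical Hodgkin lymphoma line L428, in which PU.1 (SPI1), a transcription factor that directs myeloid and B cell development, is induced by taking tetracycline out of the medium. The 3 groups are day 0, day 1 and day 3 of that removal, and all came from cells grown with tetracycline at 500 ng/ml. No array of L428 cells without the inducible gene was analysed here, so the effect of removing tetracycline and that of PU.1 cannot be told apart. The submitters mention 4 independent experiments, yet the files hold 1 column of values a day, so no value has a replicate error and no test between days was possible.

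NF-kB is a family of dimeric transcription factors that inhibitor proteins of the IkB family hold in the cytoplasm until IkB kinases mark those inhibitors for degradation. In the classical route, dimers of RELA or REL with the NFKB1 product p50 are freed, while in the alternative route the NFKB2 precursor is processed to p52, which pairs with RELB. The factors switch on genes of their own inhibitors, NFKBIA, NFKBIE and TNFAIP3 among them, which closes a feedback loop. Tumour cells of classical Hodgkin lymphoma are known for constantly active NF-kB, and L428 cells for disabling mutations of NFKBIA, whose RNA the array reads whether or not the protein works.

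The promoters are shown because several of these genes are known targets of the factor that the others encode. The RefSeq table (GRCh38.p14) held 14 start windows for 8 of the 10 genes. RELB and NFKBIE had no entry. Each window runs from 250 bases before to 50 after an annotated start, and the 250 bases before it are printed 5′ to 3′ on the gene's strand. Capitals mark matches of the 10-base NF-kB consensus, searched on both strands. TNFAIP3 and REL are shown as genes that passed the size rule given below, NFKB1 and NFKBIA as genes that did not, and TNFAIP2 as the gene with the largest change.
TNFAIP3 promoter, chr6:137867009-137867258, + strand: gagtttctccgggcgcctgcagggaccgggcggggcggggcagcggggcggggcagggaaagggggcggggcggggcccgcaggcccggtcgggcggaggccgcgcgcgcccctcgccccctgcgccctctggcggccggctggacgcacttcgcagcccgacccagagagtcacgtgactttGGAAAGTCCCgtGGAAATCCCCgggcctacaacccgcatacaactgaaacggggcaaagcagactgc
REL promoter, chr2:60881324-60881573, + strand: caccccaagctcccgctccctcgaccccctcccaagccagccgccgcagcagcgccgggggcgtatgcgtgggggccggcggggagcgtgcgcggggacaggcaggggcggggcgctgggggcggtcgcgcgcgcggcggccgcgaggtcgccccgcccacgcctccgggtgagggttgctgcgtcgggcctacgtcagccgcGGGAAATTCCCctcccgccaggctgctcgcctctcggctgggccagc
NFKB1 promoter, chr4:102501109-102501358, + strand: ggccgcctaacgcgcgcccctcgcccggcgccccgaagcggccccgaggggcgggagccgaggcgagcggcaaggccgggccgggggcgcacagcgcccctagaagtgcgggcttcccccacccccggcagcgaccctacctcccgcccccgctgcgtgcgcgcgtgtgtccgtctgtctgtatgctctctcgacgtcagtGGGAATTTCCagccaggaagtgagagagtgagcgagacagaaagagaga
NFKBIA promoter, chr14:35404750-35404999, - strand: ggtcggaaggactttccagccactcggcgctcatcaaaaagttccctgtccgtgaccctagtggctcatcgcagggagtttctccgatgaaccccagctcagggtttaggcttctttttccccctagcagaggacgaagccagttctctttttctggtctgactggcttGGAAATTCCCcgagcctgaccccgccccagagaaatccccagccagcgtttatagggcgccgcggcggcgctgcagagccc
TNFAIP2 promoter, chr14:103123211-103123460, + strand: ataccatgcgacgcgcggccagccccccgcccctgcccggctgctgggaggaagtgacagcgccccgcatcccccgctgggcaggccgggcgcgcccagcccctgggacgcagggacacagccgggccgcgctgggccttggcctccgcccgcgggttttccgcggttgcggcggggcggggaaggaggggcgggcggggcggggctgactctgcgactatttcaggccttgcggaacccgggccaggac

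The consensus was matched in 6 of the 14 windows, which belong to 5 of the 8 genes, namely NFKB1, NFKB2, REL, NFKBIA and TNFAIP3. A match was found for 7.09% of all 27305 genes in the RefSeq promoters, and in 5.91% of all 35116 windows. The windows of RELA, TNFAIP2 and TRAF1 held none, which says only that these letters are not there. TNFAIP3 had a pair of matches, GGGACTTTCC and GGGGATTTCC, both read on the strand opposite to the gene, with first bases 67 and 55 bases before the start. NFKB1 and NFKBIA held the same 10 letters, GGGAATTTCC, NFKB1 on its own strand 49 bases before the start and NFKBIA on the opposite strand 81 bases before it. In REL the matches on the 2 strands overlap, so that GGGAAATTCC on the gene's strand and GGGAATTTCC on the other cover nearly the same bases. NFKB2 had matches at 3 positions before one of its starts and at 2 before another, among them GGGAATTCCC, GGGGCTTTCC and GGGACTTTCC. A looser pattern, GGGNNNNNCC, was met in all 14 windows of these genes, and in 58.7% of all windows. With A as the base after GGG, GGGANNNNCC, it was met in 10 of the 14 windows, beside 25.6% of all windows. Those windows belong to 7 of the 8 genes, all but TNFAIP2, beside 29.0% of all genes. A match is a run of letters and was not tested for binding.

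**Figure D1:**
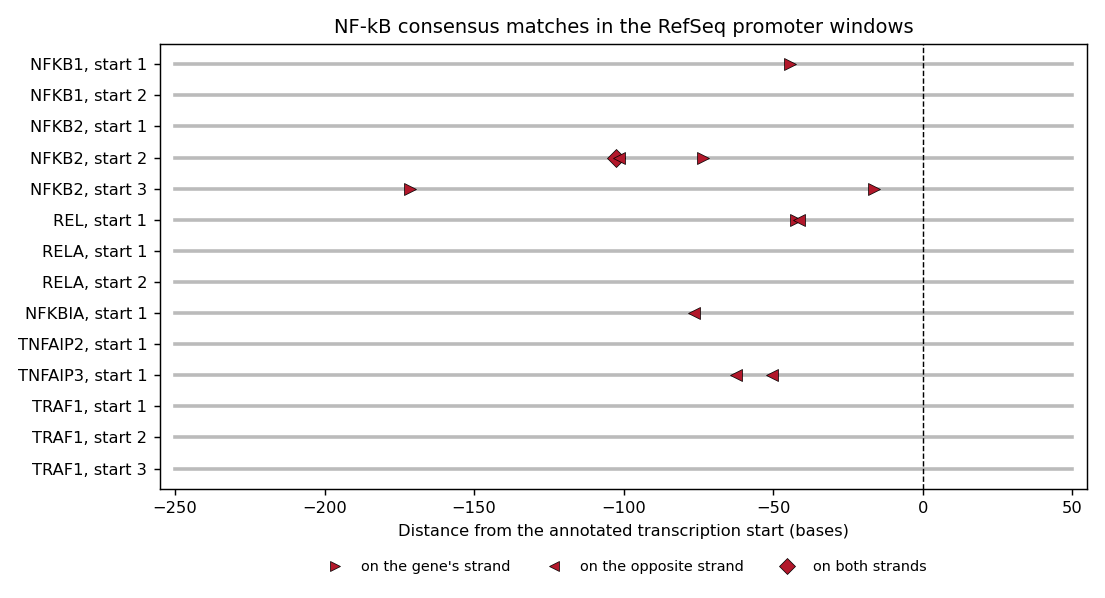
Position of NF-kB consensus matches (triangles by strand, diamond for both) in the 14 RefSeq start windows of 8 genes, in bases from the annotated start (dashed line). All matches lie before the start, in NFKB1, NFKB2, REL, NFKBIA and TNFAIP3; the lines of RELA, TNFAIP2 and TRAF1 are empty.

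On each array between 22.3% and 23.2% of 48701 probes were above background, that is, had a detection p-value under 0.01. The 1 probe named for SPI1 was above background on 0 of 3 arrays, with intensities of 40.8, 35.3 and 38.9 at day 0, 1 and 3, so the induced gene itself was not measured. All 6 Reed-Sternberg markers were above background on all arrays. None of 5 B cell, 2 T cell and 3 monocyte and macrophage markers was above background on any array, with no intensity over 66.5. The day 1 array differed most from day 0, with a correlation across probes of 0.917, against 0.954 for day 3. Probes of some reference genes moved at day 1 alone. A probe of ACTB read 2535 at day 0, 8246 at day 1 and 2661 at day 3, while its other probes changed by -0.21 and 0.16 log2 at day 1, and HPRT1 fell by 1.14 at day 1 and changed by 0.24 at day 3. Whether this has a part in the day 1 values below was not tested.

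A gene was called higher or lower, and "rose" or "fell" is used, where its normalized signal changed by at least 2-fold (1 log2). Where only 1 of the 2 arrays was above background, the change against the lowest signal above background had to reach 2-fold too, and is given as "at least". By this rule 17.2% of 9311 measured genes changed at day 1, with 9.18% that rose and 7.98% that fell. Rises made up 53.5% of these calls, but 42.0% under 75th percentile scaling and 42.9% in the authors' values. Of 9190 genes measured at day 3, 7.11% changed, with 4.97% that rose and 2.13% that fell, so that rises made up 70.0%, against 50.7% and 54.9% in those settings. From day 1 to day 3, 7.46% of 9318 changed, with 3.54% that rose and 3.92% that fell. The only error these arrays hold is that between probes of a gene. It was 0.36 log2 at day 1, 0.29 at day 3 and 0.31 between day 1 and day 3 (SD, 416 genes with 2 probes), and leaves out differences between cultures. In RNA of whole cultures, fewer cells that express a gene and less RNA per cell cannot be told apart. For the dimmest probes it was 0.44 at day 1 and 0.36 at day 3.

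The NF-kB genes lay high at day 1. All 10 had a change above 0 in the reported processing, against 46.9% of all measured genes, while NFKBIA was below 0 under 75th percentile scaling and in the authors' values. REL, NFKBIE, TNFAIP2 and TNFAIP3 rose, 4 of 10 where 9.18% of all genes did. The genes were chosen with earlier results of these data known, so such shares describe them and are no test of the group. The median change of all 10 was 0.80 log2, beside -0.05 over all measured genes. At day 3 TNFAIP2, TNFAIP3 and TRAF1 rose, 3 of 10 where 4.97% of all genes did, 7 of 10 changes were above 0, and the median was 0.59 beside -0.06. Under 75th percentile scaling 1 of these calls was left, that of TNFAIP2, and in the authors' values 0. None fell at day 1 or day 3. From day 1 to day 3 NFKBIE fell, 1 of 10 where 3.92% of all genes did, and 7 of 10 changes were below 0, with a median of -0.37 beside 0.00. The subunits had a lower median than the other members, 0.78 against 1.37 at day 1 and 0.48 against 1.08 at day 3, each over 5 genes and without a test.

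**Figure D2:**
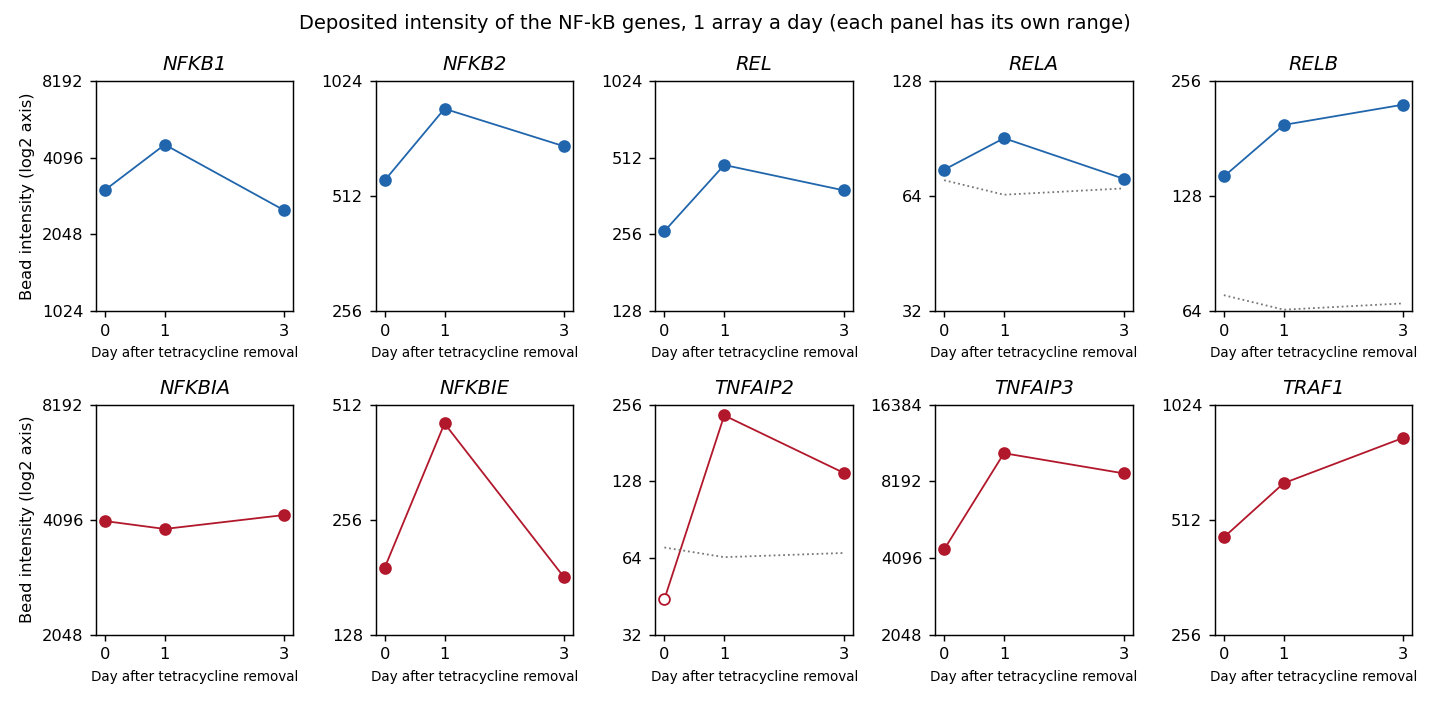
Deposited bead intensity of each gene (log2 axis, own range in each panel) by day, 1 array a day, so no error bars; blue, subunits, red, inhibitors and target genes; dotted line, lowest intensity above background; open point, not above background. NFKB1 and NFKBIE are high at day 1 alone, RELB and TRAF1 are highest at day 3, and NFKBIA stays between 3874 and 4214.

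Among the subunits, REL encodes c-Rel, the lymphoid subunit with a strong activation domain. It read, in deposited intensity as for all genes below, 263 at day 0, 479 at day 1 and 381 at day 3. It was the only subunit gene to pass the rule, 2.12-fold (1.08 log2) higher at day 1, and stood 0.69 log2 above day 0 at day 3. The call at day 1 is a narrow one: it ended without background correction, with an offset of 50, under 75th percentile scaling and in the authors' values, with a change of 0.91 to 0.98.

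NFKB1 encodes p105, the precursor of p50. It read 3056 at day 0, 4610 at day 1 and 2542 at day 3. Day 1 stands above both other days, with a change of 0.78 log2 from day 0 to day 1 and of -0.88 from day 1 to day 3, both over 2 times the probe error and short of the rule. At day 3 it was close to day 0, with a change of -0.10.

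NFKB2 encodes p100, which acts as an inhibitor until it is cut to p52. It read 562 at day 0, 866 at day 1 and 691 at day 3. The change was 0.82 log2 at day 1, the largest of the subunits after REL, and 0.48 at day 3, neither past the rule.

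RELB, the partner of p52, read 144 at day 0, 197 at day 1 and 222 at day 3. Unlike the other subunit genes it was highest at day 3, where it changed by 0.76 log2, with 0.61 at day 1. The step from day 1 to day 3, 0.15 log2, is smaller than the probe error.

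RELA encodes p65, the main activating subunit of the classical route. Its probe was only just above background, at 75, 90.7 and 71.0 on arrays whose lowest intensity above background was 70.4, 64.5 and 67.0. The changes of 0.38 log2 at day 1 and -0.13 at day 3 are within the error of dim probes, so no difference from day 0 was detectable for RELA at this signal. The change from day 1 to day 3, -0.51, is larger than that error and did not pass the rule.

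Of the inhibitors, NFKBIA encodes IkB-alpha, the classical inhibitor that NF-kB itself induces. It read 4063 at day 0, 3874 at day 1 and 4214 at day 3, the narrowest span of the 10 genes as a ratio of the highest to the lowest day. The change was 0.13 log2 at day 1 and 0.21 at day 3, both below the probe error. At day 1 its direction depends on the scaling: the change was 0.18 with cyclic loess and -0.03 under 75th percentile scaling and in the authors' values.

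NFKBIE encodes IkB-epsilon, an inhibitor that binds REL and RELA dimers. It read 192 at day 0, 457 at day 1 and 181 at day 3. It rose 2.82-fold (1.496 log2) at day 1, 4.21 times the probe error, and fell by 1.51 from day 1 to day 3. With a change of -0.01 at day 3, day 0 and day 3 differed by less than the probe error. Both calls held in each of the 8 other settings tried at 2-fold. Of these, a detection p-value under 0.05, no detection filter and the mean over probes leave its value as it is. NFKBIA and NFKBIE thus had unlike courses, NFKBIE with a peak at day 1 that NFKBIA did not show.

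TNFAIP3 encodes A20, a ubiquitin-editing enzyme that shuts off signalling upstream of the IkB kinases. It read 4427 at day 0, 10571 at day 1 and 8807 at day 3, on arrays whose brightest probe was between 15374 and 16360. It rose 2.59-fold at day 1 and 2.24-fold at day 3, or by 1.37 and 1.16 log2. At day 3 the call ended under 75th percentile scaling (0.98) and in the authors' values (0.99), just short of 1. The change from day 1 to day 3 was -0.21, less than the probe error, and -0.33 with cyclic loess.

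TRAF1 encodes an adaptor of TNF receptors that NF-kB induces and that is abundant in Hodgkin tumour cells. It read 461 at day 0, 638 at day 1 and 839 at day 3, each day above the one before. It rose 2.12-fold (1.08 log2) at day 3, after a change of 0.69 at day 1 that did not pass. Under 75th percentile scaling and in the authors' values the day 3 change was 0.88 and 0.86, which ends the call.

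TNFAIP2 encodes a TNF-induced protein of endothelial and myeloid cells that shapes membrane protrusions. At day 0 it read 44.1, which was not above background, with a detection p-value of 0.099. It read 232 at day 1 and 138 at day 3, both above background. In the reported processing it was at least 4.28-fold higher at day 1 and at least 2.29-fold at day 3, bounds that hold for that processing alone. The day 1 rise was held by all settings, and that at day 3 ended without background correction, with an offset of 50 and in the authors' values.

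**Figure D3:**
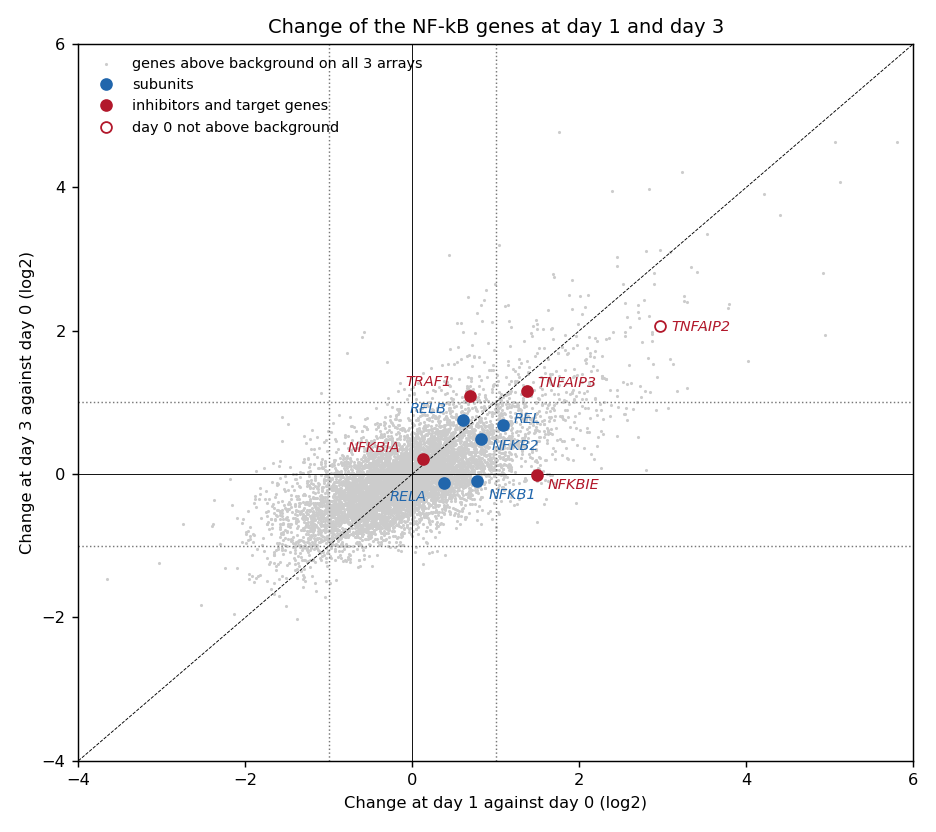
Change at day 1 (x) and day 3 (y) against day 0 in log2, for genes above background on all arrays (grey) and the 10 NF-kB genes (blue, subunits; red, inhibitors and target genes; open, day 0 not above background); dotted lines, 2-fold; dashed line, equal change. NFKBIE lies at 1.496 and -0.01, TNFAIP3 at 1.37 and 1.16, and RELB, NFKBIA and TRAF1 lie above the dashed line.

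Several courses can be read from the values. NFKB1 and NFKBIE were high at day 1 alone. REL, NFKB2 and TNFAIP3 were highest at day 1 and still 0.48 to 1.16 log2 above day 0 at day 3. TNFAIP2 was highest at day 1 too, and at day 3 at least 2.29-fold above day 0. TRAF1 and RELB were highest at day 3. The step from day 1 to day 3 was smaller than the probe error for TNFAIP3 (-0.21 log2) and RELB (0.15). For NFKB2, REL and TRAF1 it was -1.09, -1.26 and 1.26 times that error. With 1 array a day, which day is highest is not settled for these genes. A smaller change at day 3 was common on these arrays, in 89.0% of the 855 genes that rose at day 1, and 33.3% of them fell again from day 1 to day 3 by the size rule. NFKBIE was among these, so its return is not particular to it.

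The change of each gene was also set among all measured genes. TNFAIP2 has no exact rank, since its change is a bound. At day 1 NFKBIE lay above 94.7% of them, TNFAIP3 above 93.8% and REL above 90.5%. NFKBIA lay above 60.1% and RELA above 72.5%. At day 3 TNFAIP3 and TRAF1 lay above 95.3% and 94.6%, RELB above 90.2% and NFKB1 above 46.8%.

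**Figure D4:**
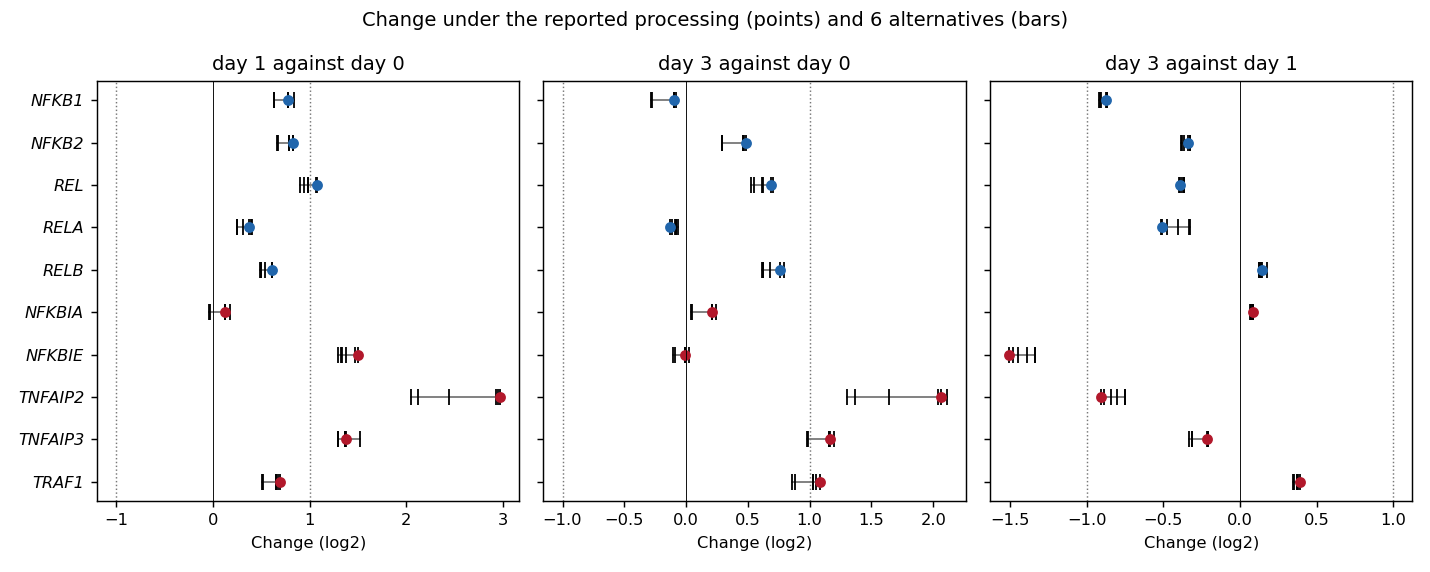
Change of each gene (log2) in the 3 comparisons under the reported processing (points) and 6 alternatives (bars), of which the mean over probes leaves single-probe genes as they are; dotted lines, 2-fold. NFKBIA spans 0 at day 1 and NFKBIE at day 3, and the values of TNFAIP2 against day 0 rest on a day 0 reading that was not above background.

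The other genes of the pathway were taken from lists by role. Of the remaining IkB family and repressor genes, 0 of 4 measured passed the rule at day 1 and 0 of 5 at day 3. Of all genes 17.2% and 7.11% changed, so counts of 0 in so short a list are no result about it. NFKBIZ, an atypical nuclear IkB, read 1248, 1444 and 2184 and changed by 0.99 log2 at day 3. NFKBID, its relative, changed by 1.06 at day 3, but was above background on that array alone and only at least 1.35-fold higher. NFKBIB and BCL3 changed by -0.26 and 0.02. NFKBID, NFKBIZ, NFKBIB and BCL3 were named after their values were seen.

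Of 12 measured kinases and kinase adaptors 2 rose at day 1 and 0 fell, where 9.18% of all genes rose and 7.98% fell, a share too close to the background to be a result about this list. TANK, an adaptor of TBK1 and IKBKE, rose by 1.38 log2 from an intensity of 1195 to 2740. MAP3K14 (NIK), the kinase that starts the alternative route, rose by 1.23 and stood 0.85 above day 0 at day 3. MAP3K8 rose at day 3 by 1.00, a call that ended in 5 of 8 alternatives, which are all those that changed its value. The IkB kinase genes CHUK, IKBKB and IKBKG, named after their values were seen, changed by -0.07, 0.37 and 0.11 at day 1. The list's median was 0.20 at day 1 and 0.25 at day 3.

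Of 14 measured receptor adaptor and TRAF family genes 0 passed the rule at day 1, where 17.2% of all genes changed. At day 3 1 of 14 rose and 0 fell, where 4.97% of all genes rose and 2.13% fell. Counts this near those shares are no result about the list. The gene that rose was BIRC2, an E3 ligase of the TRAF complexes, by 1.33 log2, from an intensity of 73.7 to 158. That call ended without background correction and with an offset of 50, at 0.96 in the lowest setting. The medians were 0.43 and 0.38, beside -0.05 and -0.06 over all measured genes. The genes of the IkB ubiquitin ligase had 0 calls among 6 at either day, with medians of -0.14 and -0.00. Beside the 17.2% and 7.11% of all genes that changed, 0 of 6 is no result about this list.

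Genes of ubiquitin editing and restraint had 6 rises among 15 measured at day 1 and 0 falls, where 9.18% of all genes rose and 7.98% fell. These were TRIM21 at 1.88 log2, ZC3H12A, an RNase that degrades cytokine transcripts, at 1.86, CYLD at 1.72, OTULIN at 1.59, RNF31 at 1.45 and RBCK1 at 1.19. RNF31 and RBCK1 encode subunits of the ligase that builds linear ubiquitin chains, and OTULIN and CYLD are enzymes that remove such chains, while SHARPIN, the remaining subunit of that ligase, changed by -0.28 (RNF31, RBCK1 and SHARPIN were named after their values were seen). None of these genes passed the rule at day 3, where the list had 0 calls among 15, near the 4.97% of all genes that rose, and a median of 0.49, after 0.59 at day 1. From day 1 to day 3 CYLD, OTULIN and ZC3H12A fell by 1.07, 1.02 and 1.07, 3 of 15 where 3.92% of all genes fell. Those calls ended without background correction and with an offset of 50, and for CYLD and ZC3H12A also in the authors' values. All 3 had risen at day 1. Of all genes that rose at day 1, 33.3% fell again by the size rule, so such a return is not particular to this list.

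Of 18 receptor genes 7 were measured at day 1 and 6 at day 3, and the rest were below background. CD40, a receptor found on B cells that signals through both routes, rose by 2.71 log2 at day 1 and 2.18 at day 3. Its intensity went from 258 to 1440 and 1002. TLR1 rose by 1.64 at day 1. IL1R1 was at least 2.09-fold higher there, a call that ended without background correction, with an offset of 50 and in the authors' values. TNFRSF8 (CD30), the marker receptor of Hodgkin tumour cells, changed by 0.19 and -0.55. The median of the list at day 1, 1.64, takes IL1R1 and TNFRSF1A at changes from a day 0 reading that was not above background, and was 0.12 with no detection filter.

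Of 46 measured NF-kB target genes outside the 10, 15 rose and 1 fell at day 1, beside 9.18% and 7.98% of all genes. By day 3 there were 18 that rose and 0 that fell, where 4.97% of all genes rose and 2.13% fell. The one that fell was CCND1, by 1.43 log2, named after its value was seen. The chemokine gene CCL22 rose by 1.76 and 4.77 at day 1 and day 3, from an intensity of 81.0 to 221 and 1671. BCL2A1, a survival gene, changed by 0.85 at day 1 and rose by 2.43 at day 3. IL1B was at least 2.61-fold higher at day 3, a call that ended without background correction and with an offset of 50. TNF rose by 2.00 and 1.14, CD69, a lymphocyte activation marker, by 2.13 and 1.69, and CD80, a costimulatory ligand, by 2.04 and 1.39. At day 3 the calls of TNF, CD86, EBI3, IER3 and PLAU ended under 75th percentile scaling and in the authors' values. Not all 18 rises hold in those settings. CD86 passed at 1.00 log2, while its other probes changed by 0.94 and 0.13. At day 1 the calls of FAS, IRF1 and VCAM1 ended in the authors' values. Those of IRF1 and VCAM1 ended without background correction and with an offset of 50 too, and that of IRF1 also under 75th percentile scaling. The day 1 call of CD86 ended with the mean over probes, at 0.39 log2, where its other probes changed by 0.07 and -0.10. CD86, EBI3, IER3, PLAU, FAS, IRF1 and VCAM1 were named after their values were seen. The medians were 0.58 and 0.76 log2, so that target genes had a higher median at day 3 than at day 1 while the 10 genes had a lower one. Both comparisons share the day 0 array. CCL17, a chemokine gene, is on both the target list and the Hodgkin and B cell identity list. It changed by 0.97 at day 1 and rose by 1.45 at day 3. With CCL22, also on both lists, it made up the calls of the identity list. They were 1 of 8 measured at day 1 and 2 of 8 at day 3, where 9.18% and 4.97% of all genes rose. So few calls are no result about this list, whose medians were 0.42 and 0.43.

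**Figure D5:**
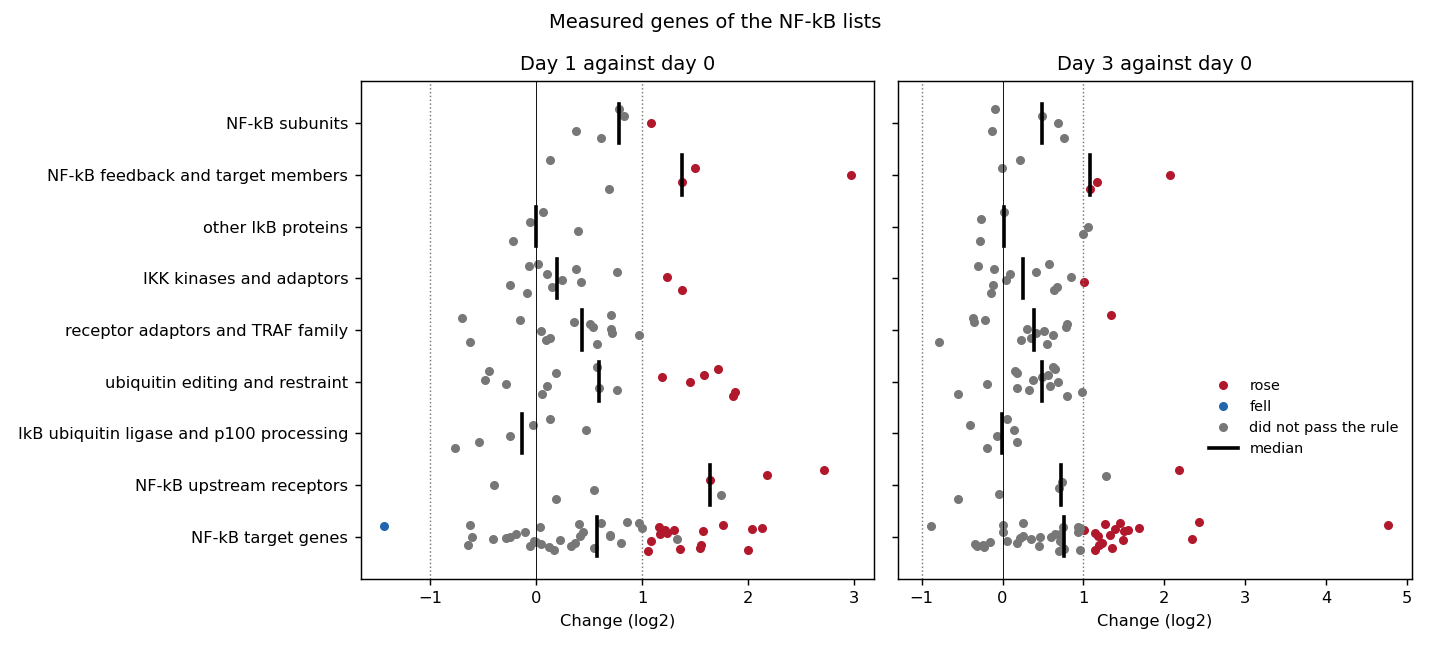
Change against day 0 (log2) at day 1 and day 3 of each measured gene of the NF-kB lists; red, rose; blue, fell; grey, did not pass the rule; black bar, median of the list; dotted lines, 2-fold. Ubiquitin editing genes have 6 red points at day 1 and 0 at day 3, and target genes have 15 and 18.

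The genes whose course was nearest to the median of the 9 members above background on all arrays, 0.78 log2 at day 1 and 0.48 at day 3, were KIAA0408, NRDE2, LAMP2, VPS33B and NPIPB15, at distances of 0.0047 to 0.036 log2. With 3 arrays such likeness is common. Of 8081 genes above background on all arrays, 381 or 4.71% lay within 0.3 log2 of that course.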

How the data were processed

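Total RNA of L428tetPU.1 cells was measured at 3 times on 1 array each. The deposited intensity and detection p-value of 48701 probes are not normalized, per the file headers. The submitters' processing notes name BeadStudio 3.3.7. The authors' deposited log2 values equal, within 1e-05, the log2 intensity less each array's 75th percentile and each probe's median over the 3 arrays, so they hold differences and no levels; they served as an alternative. The sources used here do not say whether RNA of several experiments was pooled.

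Intensities were corrected for background by the normexp model of limma 3.58.1 (R 4.3.3), taking the background from the detection p-values and an offset of 16, then quantile normalized and put on the log2 scale. The offset shrinks differences of dim probes, and quantile normalization removes a shift of most genes. Genes were named from the platform's annotation, updated through RefSeq (24303 probes named, 24398 unnamed), with the brightest probe standing for a gene. Python 3.11.15 and pandas 2.3.3 made the calls. The code was checked on simulated data with planted changes larger than 2-fold, which does not bear on calls close to 2-fold. The precision is limited by 1 array a day.

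The members and lists were chosen with earlier results of these data known. Named were the 10 genes, then up to 4 genes of each list past the size rule (6 for targets) with the largest change, and TNFRSF8, MS4A1, CD79A, ACTB and GAPDH. MS4A1 and CD79A were not above background on any array, and the 3 probes of GAPDH changed by -0.10 to 0.09 log2 at day 1. The NF-kB consensus was added after the looser patterns had been searched. No protein sequence was used here.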

Additional observations from a re-analysis of the deposited data

How the results depend on the processing

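No paired analysis was possible because each day has 1 array and no test was made. At 2-fold, the count of the 10 genes that rose at day 1 was 4 in the reported processing and 3 or 4 in the 8 alternatives, with REL the gene that dropped out. At day 3 it was 3, but 1 under 75th percentile scaling (TNFAIP2) and 0 in the authors' values. The scaling moves the median of all genes with signal at day 0 and day 3 by -0.12 log2 there, and the authors' values by -0.10. Relative to that median TNFAIP3 was 1.24 higher at day 3 in the reported processing, 1.18 under 75th percentile scaling and 1.17 in the authors' values, and TRAF1 1.16, 1.08 and 1.04. At 1.5-fold 8 genes rose at day 1, 5 rose at day 3, and 3 fell from day 1 to day 3, against 4, 3 and 1 at 2-fold. The share of rises among all called genes was 53.5% at day 1 and 70.0% at day 3, 42.0% and 50.7% under 75th percentile scaling, and 42.9% and 54.9% in the authors' values. Genes that fell at day 3 numbered 196, but 98 without background correction, 95 with an offset of 50 and 363 under 75th percentile scaling. The causes were not tested. No member changed direction in a comparison where it passed the rule. NFKBIE did so at day 3, where it had not passed, with changes from -0.11 to 0.03 log2. The median of the 10 genes stayed between 0.65 and 0.83 at day 1 and between 0.41 and 0.59 at day 3. Dim probes, RELA and TNFAIP2 among the members, limit what can be seen.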

Other observations

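The TNF receptor gene TNFRSF1A was above background on the day 1 array alone. It read 26.8 at day 0, 89.3 at day 1 and 33.8 at day 3. It was at least 1.38-fold higher at day 1 than at day 0, which does not reach 2-fold. TLR7, a receptor for single-stranded RNA, read 175, 129 and 260, and rose by 1.096 log2 from day 1 to day 3, a call that ended without background correction, with an offset of 50 and in the authors' values. Both were chosen with their values in view.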
